A study of Mus musculus with 6 samples.

Results

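Condensin and the SMC5/6 complex are ring-shaped machines built on pairs of SMC (structural maintenance of chromosomes) ATPases, and 10 genes for their subunits were examined by RNA-seq in mouse cells labelled as female germline stem cells (FGSCs), with and without knockdown of CTCF. The members were chosen by gene symbol: Smc2 and Smc4, the ATPases shared by both condensins, Ncapd2, Ncapg and Ncaph of condensin I, Ncapd3, Ncapg2 and Ncaph2 of condensin II, and Smc5 and Smc6. They were 10 of the 24728 symbols with an FPKM value (fragments scaled to transcript length and to the mapped total), and all 10 passed the filter of a mean of at least 1 FPKM.

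The labels gave 3 control libraries and 3 shCTCF libraries, all of cells of strain C57BL/6 at more than 20 passages. By the methods of the study, the cells came from ovaries of Ddx4-Cre;mT/mG mice aged 6 days, in which Cre is driven by the germ cell gene Ddx4, and per the labels both groups grew on a layer of inactivated STO fibroblasts. The shCTCF group was infected with a lentivirus encoding 1 short hairpin RNA against CTCF, a zinc finger protein at the anchors of chromatin loops, and selected with puromycin. The vector and selection of the control group, and whether the replicates were separate cultures, are not given in the sources used here, so p-values measure only the spread between these libraries, which may be technical. Ctcf itself had 58.2, 56.1 and 53.5 FPKM in the control libraries and 0.740, 0.550 and 0.629 in the shCTCF libraries.

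Total counts were between 5322636 and 7044272 fragments in 5 libraries and 1686052 in control replicate 2, which stood apart from the other libraries in the members rich in A and T, as described below. Of 6 genes used in the study as markers of FGSCs, 5 (Ddx4, Pou5f1, Dppa3, Gfra1 and Dazl) were under 1 FPKM in every library, with a highest value of 0.182, and Dppa3 and Gfra1 were at 0 throughout. The other, Ifitm3, was at most 1.21 FPKM in the controls, against between 10.4 and 11.1 in the shCTCF libraries. The RNA-seq data thus did not show the defining germ cell transcripts, and the cells are called by their label only. The study itself reported these genes as expressed by RT-PCR in its long-term cultured FGSCs. It also reported the protein of Ddx4 there by immunofluorescence. Of 16 fibroblast markers, 9 were under 1 FPKM everywhere, among them Col1a1 and Col1a2, with Col3a1 and Lum at 0. Of the 7 tested, Dcn, Fn1 and Pdgfrb fell, with Dcn listed at 0 in the shCTCF libraries, whereas Col6a1, Pdgfra, Thy1 and S100a4 rose, Col6a1 from at most 0.187 FPKM to at least 14.9. Their summed FPKM was between 106.5 and 134.4 in the controls, against between 148.2 and 195.4 in the shCTCF libraries, most of it from S100a4. Several haematopoietic genes were high in all libraries. The receptor gene Kit had between 541 and 612 FPKM in the controls and between 771 and 800 in the shCTCF libraries, and the transcription factor gene Gata2 had at least 467 and the leukocyte gene Ptprc at least 83.7 in every library. Of 14 such markers, 12 were tested, 3 fell (Cpa3, Coro1a and Rac2), 5 rose and 4 did not pass. With the libraries scaled to equal medians, 3 fell and 9 rose, beside 3606 of 9974 genes called lower and 3480 called higher. Among those that rose, Srgn went from at most 213.9 to at least 744 FPKM and Hdc from at most 4.49 to at least 79.7. The mast cell receptor gene Fcer1a was at 0 in every library, and Ms4a2 was at most 0.160 FPKM. The summed FPKM of the 14 haematopoietic markers was between 2301 and 2333 in the controls, against between 3219 and 3385 in the shCTCF libraries. The calls without that scaling in the fibroblast and haematopoietic lists stand beside 44.2% of all genes called lower and 28.8% called higher. The part of these markers in the results below was not tested, and in bulk RNA fewer cells of a type and less RNA per cell cannot be told apart.

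Condensin winds and compacts chromatin by extruding loops. Condensin II is nuclear and acts at the onset of mitosis, whereas condensin I is largely cytoplasmic until the nuclear envelope breaks down and then shortens the chromosome arms. Each holds a pair of SMC ATPases closed by a kleisin (NCAPH or NCAPH2) with a pair of HEAT-repeat subunits (NCAPD2 and NCAPG, or NCAPD3 and NCAPG2). The SMC5/6 complex works in replication fork repair and in the resolution of joined sister chromatids, and in germ cells it is known for a role in meiotic recombination. Transcripts of mitotic genes are known to accumulate in cycling cells between S phase and mitosis.

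All 8 condensin genes fell in the shCTCF libraries, as did Smc6, whereas Smc5 did not differ beyond the spread between libraries. By limma on log2(FPKM + 1), 9 of the 10 members had an adjusted p under 0.05 and were lower in shCTCF. None was higher, also at an unadjusted p under 0.05 and also by edgeR on counts. This stands beside 73.0% of the 9974 genes tested called in either direction, 44.2% called lower and 28.8% called higher. The 3 members with a log2 fold change of at most -1, at least a halving on that scale, were Ncapd2, Ncapg and Smc4, beside 14.9% of all genes. The values of the groups did not overlap in 9 members, all lower in shCTCF, beside 45.8% of all genes. The median log2 fold change of the members was -0.83, and that of all genes was -0.17. When the libraries were scaled to equal medians, the median of all genes was -0.01 and that of the members -0.66. Again 9 members were lower, beside 3606 of the 9974 genes tested. The exact permutation test of 3 libraries against 3 cannot give a two-sided p below 0.1 for any member, and so only the test across all genes is used.

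**Figure D1:**
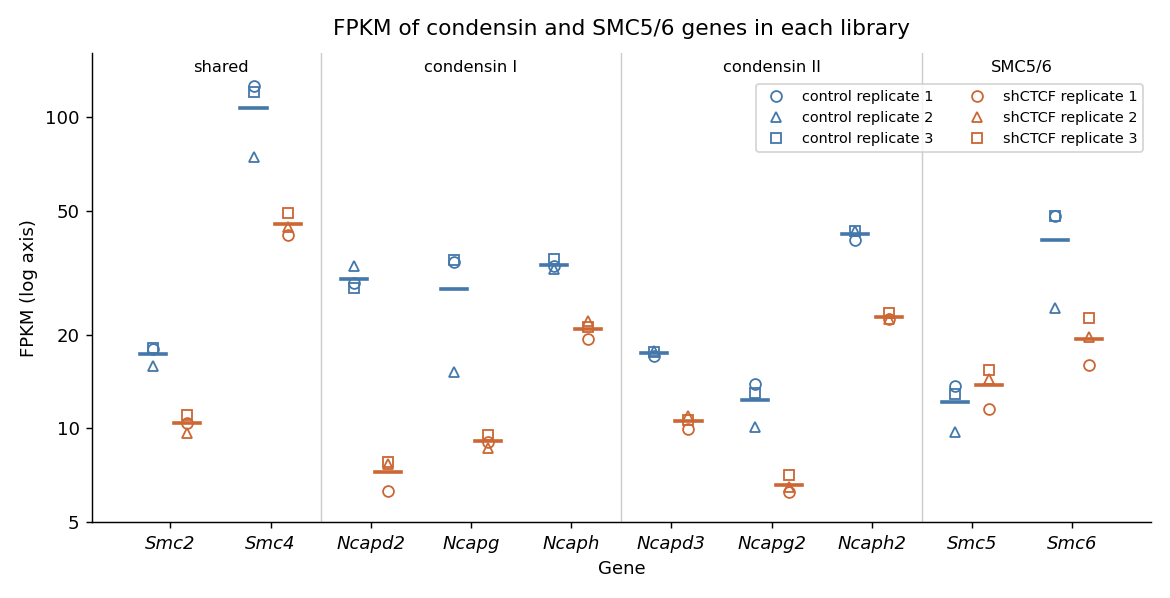
FPKM of each gene (log axis) in the 3 control libraries (blue) and the 3 shCTCF libraries (orange), with a bar at the group mean and marker shapes for replicates 1 to 3. The groups are apart in every gene except Smc5, and control replicate 2 lies far below the other controls in Smc4, Ncapg and Smc6.

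Promoter letters are shown because 9 of the 10 members fell and because promoters of genes of the late cell cycle are known for the CHR (cell cycle genes homology region). The CHR is bound by the LIN54 subunit of MuvB complexes and often stands with a CCAAT box, which NF-Y binds. Windows from 250 bases before to 50 bases after the start (RefSeq, build GRCm38.p6) were found for 9 members, with 10 windows in all because Ncapd3 had a second start 30241 bases from the start counted here. Smc4 had no entry. The Smc5 window lay at the start of a transcript (23347089) that had 0 FPKM in every library, and not at the start of the Smc5 transcripts with FPKM. Each window matched mm9 exactly and once. The letters TTTGAA, on either strand, stood in 6 of the 10 windows and in 17.89% of 32851 promoters of the same length. In Ncapd3 they stood only in the window at the second start. TTCGAA, which reads the same on both strands, stood in 2 windows and in 1.56% of promoters, and either form in 7 windows and in 19.23%. CCAAT on either strand stood in 3 windows and in 37.41% of promoters, and the E2F-like TTTNNCGC on either strand in 3 windows and in 5.17%. The matches did not overlap each other. Such matches are a description of letters and not of bound sites. Whether they go with the size of the falls was not tested. Smc2, whose window held TTTGAA, had a log2 fold change of -0.69, close to the -0.66 of Ncaph, whose window held none of these letters. Shown are the 130 bases before the start of Ncapd2 (mm9 chr6:125141605-125141734, minus strand), with the largest fall, of Ncapg (chr5:46061034-46061163, plus strand) and Ncapg2 (chr12:117643779-117643908, plus strand), the paired HEAT-repeat subunits with TTTGAA close to the start, and of Ncaph (chr2:126959691-126959820, minus strand), in which none of these letters was found. None of these stretches held an exon of the count table. They are written 5′ to 3′ on the strand of the gene, with the last base next to the start, and capitals mark the matches (ATTGG is CCAAT on the other strand):
Ncapd2: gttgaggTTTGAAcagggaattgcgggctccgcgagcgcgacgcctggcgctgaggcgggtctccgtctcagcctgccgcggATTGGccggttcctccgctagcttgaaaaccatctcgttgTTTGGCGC
Ncapg: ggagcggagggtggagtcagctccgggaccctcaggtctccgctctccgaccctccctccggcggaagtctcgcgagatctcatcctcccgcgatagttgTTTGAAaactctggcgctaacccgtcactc
Ncapg2: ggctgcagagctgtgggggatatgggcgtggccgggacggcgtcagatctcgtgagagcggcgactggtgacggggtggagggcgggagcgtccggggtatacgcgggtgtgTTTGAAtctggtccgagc
Ncaph: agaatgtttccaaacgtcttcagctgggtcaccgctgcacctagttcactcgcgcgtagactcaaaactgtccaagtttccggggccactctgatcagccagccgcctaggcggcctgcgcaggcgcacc

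The shared ATPase genes were both lower after CTCF knockdown, Smc4 more than Smc2. Smc2 (mm9 chr4:52452093-52501237, plus strand) had 17.9, 15.8 and 18.2 FPKM in control replicates 1, 2 and 3 and 10.4, 9.64 and 11.04 in the shCTCF libraries. All controls were above all shCTCF libraries, the group means were 17.3 ± 1.297 and 10.4 ± 0.698 FPKM (SD, n = 3), and Smc2 had a log2 fold change of -0.69, with a standard error (SE) of 0.09 (limma adjusted p = 2.3e-04). FPKM of Smc2 was split between transcripts that differ by 76 exon bases, and in control replicate 2 the shorter held 68.1% of it but none in the other controls. With only the transcript of the higher mean, the Smc2 call was lost (-0.45, limma adjusted p = 0.43). Smc4 (chr3:68808660-68838546, plus strand), the partner of SMC2 in both condensins, had 125.6, 74.4 and 120.4 FPKM in the controls, against 41.8, 44.3 and 49.2 in the shCTCF libraries. It was the most abundant member in all 6 libraries, with a mean 57.7% lower in shCTCF and a log2 fold change of -1.19 with an SE of 0.19 (limma adjusted p = 6.9e-04). Control replicate 2 was the lowest control and still above all shCTCF libraries. Without it the log2 fold change of Smc4 was -1.43.

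The condensin I genes held both the largest and the smallest fall among the condensin subunits by point estimate. Ncapd2 (chr6:125118025-125141604, minus strand), whose promoter holds TTTGAA and also CCAAT and TTTNNCGC letters, had 29.3, 33.2 and 28.1 FPKM in the controls, against 6.31, 7.67 and 7.79 in the shCTCF libraries. The shCTCF mean was 76.0% below the control mean, and the log2 fold change of -1.92 with an SE of 0.10 (limma adjusted p = 2.1e-06) was lower than that of all but 2.22% of the genes tested. Ncapg (chr5:46061164-46091786, plus strand), the other HEAT-repeat subunit, had 34.1, 15.2 and 34.7 FPKM in the controls, against 9.07, 8.66 and 9.55 in the shCTCF libraries. The shCTCF libraries were close together whereas control replicate 2 had 44.2% of the mean of the other controls, and the log2 fold change was -1.44 with an SE of 0.28 (limma adjusted p = 0.0022), or -1.81 without that library. The kleisin gene Ncaph (chr2:126929546-126959690, minus strand) had 33.1, 32.4 and 34.9 FPKM in the controls, against 19.3, 22.1 and 21.1 in the shCTCF libraries. It was thus 37.7% lower, with a log2 fold change of -0.66 and an SE of 0.08 (limma adjusted p = 1.2e-04), and with a 95% confidence interval of -0.84 to -0.48 that lay above that of Ncapd2, -2.16 to -1.68.

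The condensin II genes fell by similar amounts, with log2 fold changes between -0.86 and -0.68 and no member at a halving. Ncapd3 (chr9:26837760-26902900, plus strand), the counterpart of Ncapd2, had 17.02, 17.7 and 17.6 FPKM in the controls, against 9.97, 10.97 and 10.7 in the shCTCF libraries (log2 fold change -0.68, SE 0.07, limma adjusted p = 8.9e-05). Ncapg2 (chr12:117643909-117702005, plus strand), the counterpart of Ncapg, had 13.8, 10.1 and 13.01 FPKM in the controls, against 6.23, 6.48 and 7.07 in the shCTCF libraries (log2 fold change -0.80, SE 0.12, limma adjusted p = 5.8e-04). In both genes every control was above every shCTCF library. The kleisin gene Ncaph2 (chr15:89186150-89203281, plus strand) had 40.3, 43.0 and 43.0 FPKM in the controls, against 22.4, 22.5 and 23.4 in the shCTCF libraries (log2 fold change -0.86, SE 0.07, limma adjusted p = 1.2e-05). Its exons share bases with Tymp and Sco2, so that its level includes an uncertain number of fragments of those genes. The same holds for Ncapg, of whose exon bases 79.2% lay in no other accession, the rest being shared with Lcorl.

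The SMC5/6 ATPase genes differed from each other. Smc6 (chr12:11272692-11326591, plus strand) had 48.2, 24.4 and 48.1 FPKM in the controls, against 15.9, 19.6 and 22.6 in the shCTCF libraries. Control replicate 2, with 50.6% of the mean of the other controls, lay just above the highest shCTCF library, and the log2 fold change was -0.96 with an SE of 0.26 (limma adjusted p = 0.011), or -1.28 without that library. Smc5 (chr19:23280931-23348387, minus strand), its partner, had 13.7, 9.74 and 12.9 FPKM in the controls, against 11.6, 14.4 and 15.4 in the shCTCF libraries. The groups overlapped, and the log2 fold change of 0.18 had a 95% confidence interval of -0.17 to 0.52 (limma adjusted p = 0.32). That interval includes no change and excludes a halving. With the libraries scaled to equal medians the Smc5 value was 0.35 (limma adjusted p = 0.058).

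The FPKM of Smc5 and Smc6 was divided among overlapping transcripts, and this division also differed between libraries. The Smc5 transcript with 25 exons made up 51.3%, 44.7% and 34.1% of the FPKM of the gene in the controls, against 85.9%, 71.2% and 80.3% in the shCTCF libraries. It had 7.01, 4.35 and 4.42 FPKM in the controls, against 9.92, 10.3 and 12.3 in the shCTCF libraries. On the 45 exon bases that belong to this transcript alone, 15, 2 and 24 fragments were counted in the controls, against 11, 5 and 10 in the shCTCF libraries. These were 1.19 to 3.41 and 0.939 to 1.87 counts scaled to a common library total (CPM). A fragment that also reached an exon shared with another transcript was not counted, so these counts cannot check the division. For Smc6, the transcript with 27 exons had 28.9, 24.4 and 29.8 FPKM in the controls, against 15.9, 13.996 and 15.3 in the shCTCF libraries, whereas a short transcript with 10 exons had 19.2, 0 and 18.3 in the controls, against 0, 5.63 and 7.33 in the shCTCF libraries. Taken alone, the longer Smc6 transcript did not overlap between groups. The short one was listed at 0 in control replicate 2 and shCTCF replicate 1, although 4 and 24 fragments were counted there on bases of its own. With only the transcript of the highest mean, Smc5 rose (0.94, limma adjusted p = 0.0046).

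**Figure D2:**
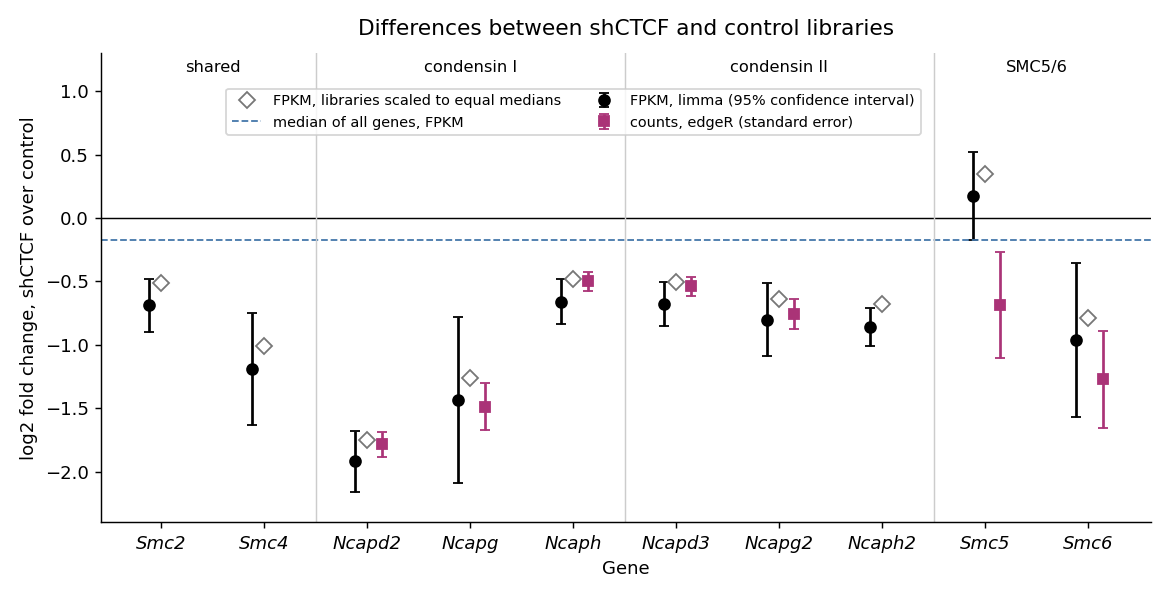
Log2 fold change of each gene, shCTCF over control, from limma on log2(FPKM + 1) with its 95% confidence interval (black), from limma after scaling to equal medians (diamonds) and from edgeR on counts with its standard error (purple), with a dashed line at the median of all genes on FPKM. Ncapd2 lies lowest at -1.92, and Smc5 is the only gene whose interval on FPKM includes 0.

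The deposited counts gave a check in the genes for which they could be used. A fragment that fell on exons of more than 1 accession was not counted, and of the exon bases of Smc2, Smc4 and Ncaph2 only 1.37%, 0.254% and 0.09% lay in a single accession. These 3 genes had between 0 and 2 fragments in every library and were not tested. Of the other 7 members, 6 fell by edgeR, beside 34.3% of the 7339 genes tested that were called lower, and the CPM of the groups after TMM normalization did not overlap in 5, all lower in shCTCF, beside 35.1% of all genes. Among the 7, Smc5 and Smc6 had only 2.35% and 6.51% of their exon bases in a single accession. Their fragments were counted on the 45 bases of 1 Smc5 transcript and on 390 bases of the short Smc6 transcript. The count results of these 2 genes therefore do not stand for the whole genes. The median log2 fold change of the 7 was -0.76, and that of all genes was -0.02.

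Ncapd2 again fell most, from 1754, 506 and 1801 fragments in the controls to 360, 401 and 505 in the shCTCF libraries, with a log2 fold change of -1.79 and an SE of 0.10 after TMM normalization (edgeR adjusted p = 1e-08). The values of Ncapg (-1.49, SE 0.19), Ncapg2 (-0.76, SE 0.12), Ncapd3 (-0.54, SE 0.08) and Ncaph (-0.50, SE 0.08) stood in the same order as on FPKM. Smc6 had 69, 4 and 85 fragments in the controls, against 24, 24 and 16 in the shCTCF libraries, all on the short transcript. Its log2 fold change of -1.27 (SE 0.38, edgeR adjusted p = 0.01) rested on few fragments. The call was lost without control replicate 3 (edgeR adjusted p = 0.079) or without shCTCF replicate 3 (edgeR adjusted p = 0.072). After TMM normalization its CPM was 2.23 in control replicate 2 and between 2.50 and 4.80 in the shCTCF libraries, so that the groups overlapped. Smc5 had a log2 fold change of -0.69 (SE 0.42, edgeR adjusted p = 0.16), of the opposite sign to that on FPKM and also not past the threshold.

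Within a library, the ratio of related subunits does not depend on the scaling between libraries, and the balance between the condensins differed between the groups. The summed FPKM of the 3 condensin I subunits was 1.36, 1.14 and 1.33 times that of the 3 condensin II subunits in the controls, against 0.899, 0.963 and 0.935 times in the shCTCF libraries. The difference was carried by the HEAT-repeat subunits. Ncapd2 over Ncapd3 was 1.72, 1.87 and 1.6 in the controls, against 0.633, 0.699 and 0.731 in the shCTCF libraries, so that the more abundant of the pair changed. Ncapg over Ncapg2 was 2.46, 1.503 and 2.67 in the controls, against 1.46, 1.34 and 1.35 in the shCTCF libraries, with control replicate 2 close to the latter. The kleisins went the other way, with Ncaph over Ncaph2 at 0.821, 0.754 and 0.810 in the controls, against 0.863, 0.984 and 0.902 in the shCTCF libraries. The levels of Ncaph2 and Ncapg, which enter these sums and ratios, include an uncertain number of fragments of overlapping genes. Control replicate 2, whose levels went with GC content as described below, also enters each ratio.

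Between the ATPases, Smc4 over Smc2 was 6.996, 4.70 and 6.62 in the controls, against 4.01, 4.597 and 4.46 in the shCTCF libraries, a gap between control replicate 2 and shCTCF replicate 2 that was small beside the range of the controls. Smc6 over Smc5 was 3.52, 2.50 and 3.72 in the controls, against 1.38, 1.36 and 1.47 in the shCTCF libraries. None of these 6 ratios overlapped between groups. The exact two-sided permutation test gives p = 0.1 for each, which is the smallest that 3 against 3 libraries allow, and no ratio could pass 0.05. Ncapg over Ncaph, also computed, did overlap, with 1.03, 0.4685 and 0.9967 in the controls, against 0.4696, 0.3915 and 0.4526 in the shCTCF libraries. The share of other gene pairs whose ratio was apart between groups was not computed.

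**Figure D3:**
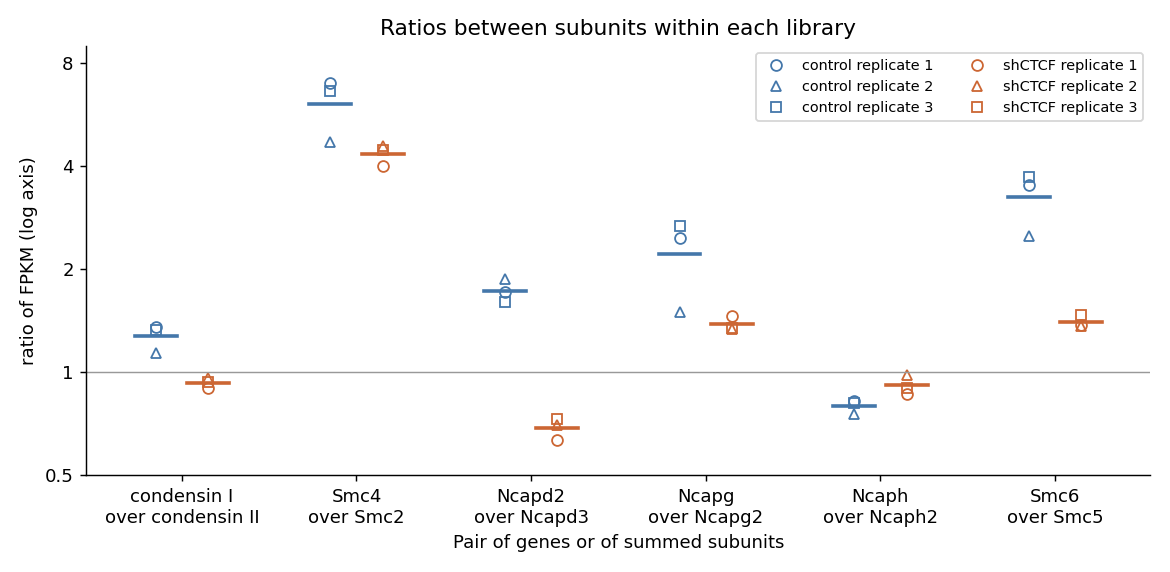
Ratio of FPKM (log axis) between related subunits in each control library (blue) and shCTCF library (orange), with bars at the group means and marker shapes for replicates 1 to 3. Ncapd2 over Ncapd3 lies above 1 in all controls and below 1 in all shCTCF libraries.

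On the FPKM scale, which is per transcript length, the order of the mean levels in the controls was Smc4, Ncaph2, Smc6, Ncaph, Ncapd2, Ncapg, Ncapd3, Smc2, Ncapg2 and Smc5. Among neighbours in that order, the ranges over the 3 controls were apart only between Smc4 and Ncaph2 and between Smc2 and Ncapg2. In the shCTCF libraries Smc4 and Ncaph2 were again first, Ncapd2 moved from rank 5 to rank 9 and Smc5 from rank 10 to rank 5. The summed FPKM of the 10 members was 373.0, 276.1 and 370.9 in the controls, against 153.0, 166.3 and 177.8 in the shCTCF libraries.

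Control replicate 2 touched the members unequally, and its level relative to the other controls went with the GC content of the exons. It had between 44.2% and 87.6% of the mean of the other controls in Ncapg, Smc6, Smc4, Smc5, Ncapg2 and Smc2, whose exons had between 39.3% and 41.5% GC. It had between 95.5% and 115.6% in Ncaph, Ncapd3, Ncaph2 and Ncapd2, whose exons had between 46.8% and 55.7% GC. Over all genes the same library had a median log2 ratio to the other controls of -0.53 in genes under 42% GC and of 0.22 in genes above 54% GC. Across 7758 genes, which share this library and its depth and are not independent, Pearson's r between GC content and that log2 ratio was 0.656 and Spearman's rho was 0.687. Without control replicate 2 the same number of members, 9 on FPKM and 6 on counts, fell. This stands beside 4789 of 10012 genes called lower on FPKM and 2776 of 7666 on counts.

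**Figure D4:**
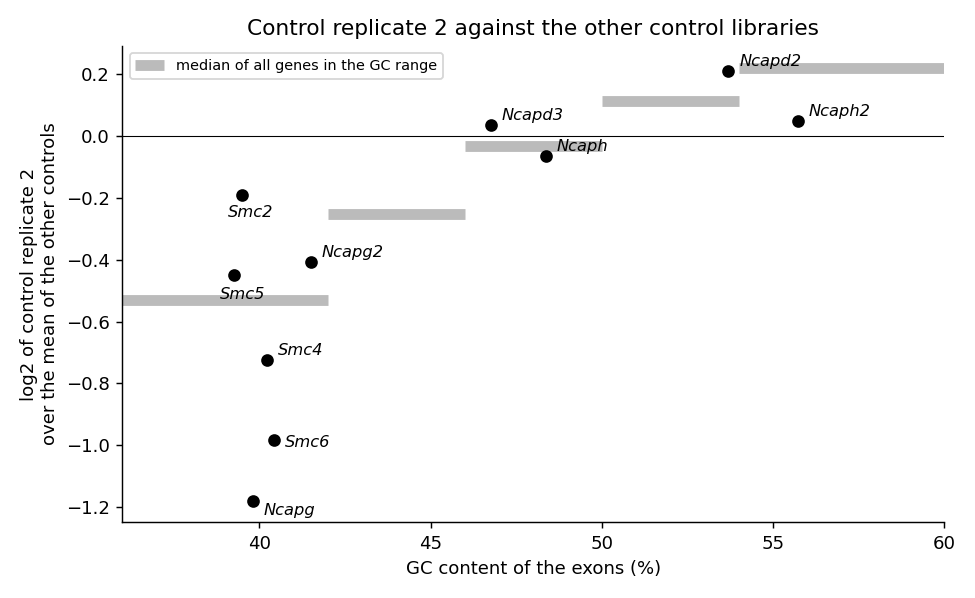
Log2 ratio of FPKM in control replicate 2 to the mean of the other controls against the GC content of the exons, for each member (points) and as the median of all genes in ranges of GC content (grey bars). The 6 members under 42% GC lie below 0, down to -1.18 for Ncapg.

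Of 8 partners of SMC5/6, 5 fell, 1 rose and 2 did not pass on FPKM, with a median log2 fold change of -0.51. This stands beside 44.2% of all genes called lower and 28.8% called higher. On counts 3 of the 6 tested fell, 1 rose and 2 did not pass, with a median of -0.25. This stands beside 34.3% of all genes called lower and 2553 of 7339 called higher. Nsmce4a, a kleisin of the complex, had 45.98, 41.5 and 46.9 FPKM in the controls, against 8.45, 10.0 and 8.62 in the shCTCF libraries (log2 fold change -2.19, SE 0.09, limma adjusted p = 5.7e-07; counts -2.11). By point estimate this was a larger fall than that of any member. Nsmce1, a RING-finger subunit, fell by 1.25 on the log2 scale, and Simc1 (-0.66), Nsmce3 (-0.54) and Slf2 (-0.47) fell less. The SUMO ligase gene Nsmce2 (-0.14, limma adjusted p = 0.16) and Slf1 (-0.19, limma adjusted p = 0.40) did not pass. On counts Nsmce2 had a value of the opposite sign, 0.27 (edgeR adjusted p = 0.082). Eid3, a paralogue of Nsmce4a, was the member of the list that rose (0.63), from at most 1.66 to at most 2.54 FPKM.

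Among the other SMC ATPases, the cohesin genes Smc1a (-1.21) and Smc3 (-1.08) and the X inactivation factor Smchd1 (-0.85) fell, and the meiotic cohesin gene Smc1b was under the filter, with 0 FPKM in every control and at most 0.137 in the shCTCF libraries. Of 18 regulators of condensin and of chromosome condensation, 17 fell and 1 did not pass, with a median of -1.26. This stands beside 44.2% of all genes called lower, and on counts 12 of the 15 tested fell, beside 34.3% of all genes. Plk1, a mitotic kinase, fell most (-2.63, from a range of 36.1 to 39.3 FPKM to one of 5.02 to 5.64), followed by Ccnb1 (-2.44), the cyclin of the mitotic kinase CDK1, whose complex is known to phosphorylate condensin. At the other end were Mcph1 (-0.15, limma adjusted p = 0.27), an inhibitor of condensin II, and the histone demethylase gene Phf8 (-0.31), whose call was lost when libraries were scaled to equal medians (limma adjusted p = 0.14), as was that of Akap8.

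S phase genes and transcription regulators of the cell cycle moved in both directions. Of 16 S phase genes, 11 fell and 5 rose, with a median of -0.997, beside 44.2% of all genes called lower and 28.8% called higher. Cyclin A2 (Ccna2, -2.04) and the helicase subunit gene Mcm7 (-1.33) fell most on FPKM, but Mcm7 had at most 15 fragments in the count table and a value of 0.06 there (edgeR adjusted p = 0.89). The cyclin E genes Ccne1 (2.01, from at most 7.94 FPKM to at least 30.2) and Ccne2 (1.53) rose most with all libraries. The others that rose, named after their values were seen, were Rrm2 (1.29), Cdc6 (0.74) and Pcna (0.62). Control replicate 2 had 2.98 FPKM of Ccne2, the lowest control value. Without that library the value of Ccne2 was 1.09 and that of Rrm2 was 1.27. Ccne2 had too few fragments to be tested on counts. The summed FPKM of the 8 condensin genes was 0.417, 0.316 and 0.424 times that of the S phase genes in the controls, against 0.213, 0.216 and 0.227 times in the shCTCF libraries, without overlap. That S phase sum includes Rrm2 and Pcna, whose means rose from 67.3 to 165.5 and from 90.3 to 139.6 FPKM. The ratio without these genes was not computed. The S phase median of -0.997 lay below the -0.83 of the members. The ratio thus does not show that condensin genes fell more than most S phase genes.

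Of 17 transcription regulators of the cell cycle (E2F, pocket protein, MuvB, MYBL2 and FOXM1 genes), 8 fell, 3 rose and 6 did not pass, with a median of -0.07. These counts stand beside 44.2% of all genes called lower and 28.8% called higher, so that the share that fell was near the background. E2f4, a repressor of E2F targets, fell (-1.69), and E2f5 was listed at 0 FPKM in all shCTCF libraries, in which 29, 31 and 40 fragments were nevertheless counted (edgeR log2 fold change -1.05, adjusted p = 0.0016). E2f7 (0.77) and E2f3 (0.61) rose most, together with E2f1 (0.30), named after its value was seen. On counts E2f3 had a value of 0.81 (edgeR adjusted p = 0.029) and E2f1 one of 0.13 (edgeR adjusted p = 0.74). After scaling to equal medians 6 of the 17 were higher, and the median of this list changed sign to 0.10. Over the lists named here, 44 of 62 genes tested fell and 9 rose on FPKM, and 28 of 45 fell and 6 rose on counts. The FPKM calls stand beside 44.2% of all genes called lower and 28.8% called higher. The count calls stand beside 2519 of 7339 genes called lower and 2553 called higher.

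**Figure D5:**
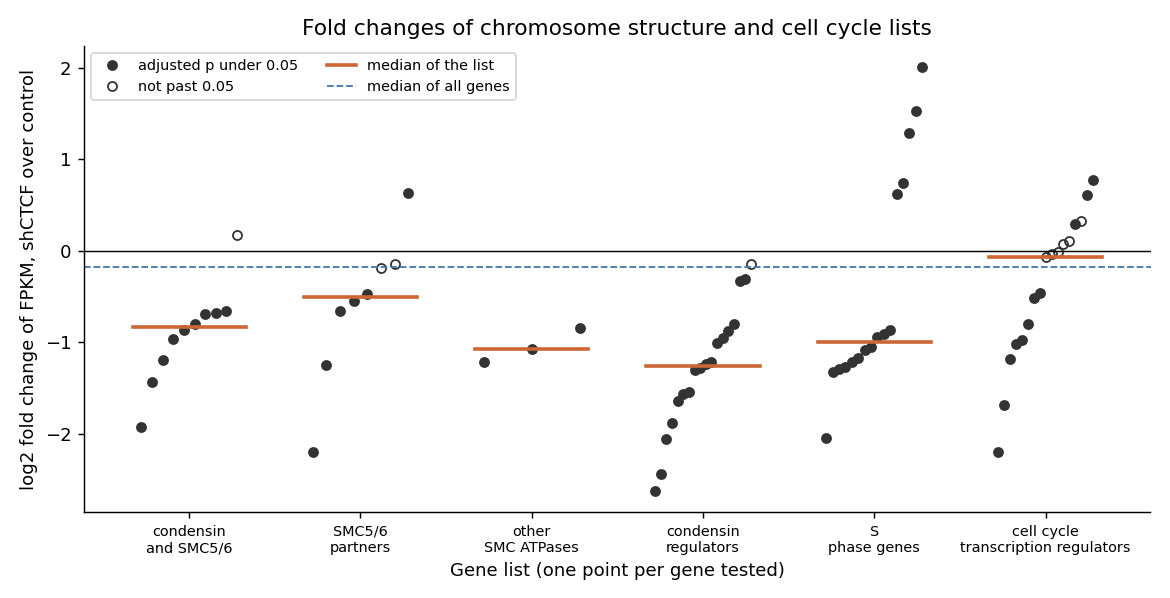
Log2 fold change of FPKM, shCTCF over control, of each gene tested in 6 lists (filled points, limma adjusted p under 0.05; open points, not past it), with the median of each list (orange) and of all genes (dashed). The condensin regulators have the lowest median at -1.26, and the S phase list holds genes up to 2.01.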

How the data were processed

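Expression of condensin and SMC5/6 genes was compared between 3 control and 3 shCTCF libraries of labelled FGSCs, grouped by the labels. Per the methods of the study, the authors trimmed reads of stranded mRNA libraries and aligned them to mm9 with HISAT2 (version 4.8.2 in the submitters' processing notes), and FPKM values were calculated by the authors with Cufflinks 2.2.1 and RefSeq annotation, normalized for depth. The deposited counts are whole numbers of fragments per RefSeq accession from featureCounts 1.6.2, per the file headers, without strand and without fragments that overlapped more than 1 accession.

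Accessions were matched to symbols with a RefSeq table (41680 of 41876 FPKM rows and 41181 of 41388 count accessions), and values were summed per symbol. Rows without a symbol, at most 0.622% of a library's counts, were left out. No value column lacked a sample (0 in each table). FPKM was tested on log2(FPKM + 1) with limma 3.58.1 (eBayes with trend) where the mean FPKM was 1 or more, a scale that understates the change of low genes. Counts were tested with edgeR 4.0.16 (quasi-likelihood, filterByExpr, TMM) in R 4.3.3, with the SE derived from the F statistic. Two-sided p-values were corrected over all genes by Benjamini-Hochberg at a threshold of 0.05. Both fits were tested on simulated data in which few genes changed and no library had a GC effect. That setting differs from these data, so the simulation does not show how the fits perform here.

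A floor of 3 counts corresponded to 1.779 CPM in control replicate 2 and to 0.426 to 0.564 CPM elsewhere, for counting error only. The members, the lists and the tests were chosen with earlier results of these data known. The named genes were all members, Ctcf, and of the 5 lists of related genes (partners, other SMC ATPases, regulators, S phase, transcription) those of up to 8 genes in full and from the longer ones the 2 lowest and 2 highest log2 fold changes on FPKM. Akap8 and the fibroblast and haematopoietic markers named were chosen after their values were seen. Alternatives were other pseudocounts, filters, scalings, DESeq2 1.42.0, the highest accession in place of the sum, the other table, a replicate block, each library left out and, added after the data had been seen, a GC correction. Exon GC content came from the mm9 reference (NCBIM37), and promoters from RefSeq windows in GRCm38.p6.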

Additional observations from a re-analysis of the deposited data

How the results depend on the processing

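On FPKM, 9 members passed under every alternative run on that table, and 6 passed in the count table, where 3 members could not be tested. With the accession of highest mean in place of the sum, the 9 were not the same genes, since Smc2 was lost (-0.45, limma adjusted p = 0.43) and Smc5 rose (0.94, limma adjusted p = 0.0046). Smc5 reversed to -0.69 in the count table (edgeR adjusted p = 0.16). The median of the members on FPKM moved from -0.83 to -0.66 with median scaling and -0.67 with quantile normalization, and was -0.74 with the GC correction, under which the share of all calls that were lower went from 60.5% to 50.2%. On counts the median moved from -0.76 to -0.93 when libraries were scaled by size only. It lay between -0.90 (without shCTCF replicate 1) and -0.70 when each library was left out in turn. Smc6 lost its call on counts without control replicate 3 (-0.97, edgeR adjusted p = 0.079) or shCTCF replicate 3 (-0.997, edgeR adjusted p = 0.072), which left 5 members past the threshold. Genes past the threshold in the other lists numbered 53 of 62 tested on FPKM, beside 73.0% of all genes. In the count table they numbered 34 of 45, beside 2519 genes called lower and 2553 called higher of 7339. On FPKM they numbered 51 to 56 when each library was left out. Leaving out a library in turn kept the log2 fold change of Ctcf between -5.16 and -5.08. The other 269 values of single genes did not change sign or cross the threshold. A further 85 values, counts of genes and medians, were also classed as unchanged. The medians among these moved by less than the spread between replicates. The counts of genes were not judged by that spread. Some of them differed, such as the 9 members past the threshold on FPKM against 6 in the count table. The replicate numbers did not pair the libraries, with correlations of deviations between same-numbered libraries of -0.041, 0.018 and 0.0395, and with the replicate number as a block 9 members on FPKM and 6 on counts fell, with a median of -0.74 on counts. With that block 4310 of 9974 genes were called lower on FPKM and 2414 of 7339 on counts. Exon bases shared between accessions left Smc2, Smc4 and Ncaph2 to FPKM alone and Smc5 and Smc6 with few counted fragments. The causes of the values that moved were not tested.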
